A study of Rattus norvegicus with 32 samples.

Results

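Capillary endothelial markers were followed in rat liver sinusoidal endothelial cells (LSECs) through the stages of a carbon tetrachloride (CCl4) model of chronic liver disease and in a thioacetamide (TAA) experiment. The markers were chosen by gene symbol, and of the 5 genes Pecam1, Cd34, Emcn, Aqp1 and Mcam, 4 had a row among the 32623 genes of the files, so that Pecam1 was not analysed here. The 4 genes analysed were Cd34 (ENSRNOG00000045558), Emcn (ENSRNOG00000022910), Aqp1 (ENSRNOG00000011648) and Mcam (ENSRNOG00000007726), each with counts in all 32 libraries. In the CCl4 model, male Wistar Han rats inhaled CCl4, a liver toxicant, for 2 weeks (acute injury, n = 5), 6 weeks (fibrosis, n = 5) or 12 to 14 weeks (cirrhosis, n = 6), with phenobarbital, a drug that induces liver enzymes, in the drinking water, and healthy Wistar Han rats served as controls (n = 6). The cirrhotic libraries are labelled only as CCL4 treated rat and carry no duration of their own, which was taken from the description of the study. The TAA experiment has 5 libraries labelled control and 5 labelled TAA control rat. The study describes healthy and TAA-cirrhotic Sprague-Dawley rats for it, whereas the labels name Wistar Han for all libraries. Which of the groups received TAA, another liver toxicant, was not settled, and values of this experiment are therefore given by label, with no direction of disease. LSECs were obtained after perfusion and digestion of the liver by density gradient centrifugation with iodixanol, without antibody selection, some days after the last toxicant dose. Neither labels nor methods name a sequencing or isolation batch, and a batch aligned with the stages cannot be told apart from stage.

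LSECs line the liver sinusoid. They are perforated by fenestrae, lack an organized basement membrane and carry scavenger receptors such as the stabilins. In chronic injury they can lose fenestrae and gain features of the continuous endothelium of other capillaries, including a basement membrane, a change named capillarization. Cd34 encodes a sialomucin of the surface of vascular endothelium and blood progenitors that is used in histology to stain capillarized sinusoids. Emcn encodes endomucin, a sialomucin of capillaries and veins that limits the adhesion of leukocytes. Aqp1 encodes a water channel of endothelium, red blood cells and bile duct cells, and Mcam encodes CD146, an adhesion molecule of the junctions of endothelium that is also made by pericytes. Pecam1 encodes an adhesion molecule of endothelial junctions.

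RefSeq promoter sequences were at hand for 3 of the 5 markers, and they are shown because all 3 of these genes were lower than in healthy LSECs after acute injury and at fibrosis and separated in cirrhosis. Each run holds the 250 bases before the gene start in the assembly GRCr8, which is newer than the assembly Rnor_6.0 used for the counts, and capitals mark matches on either strand to any of 5 motifs: the ETS core GGAAG, the KLF core CACCC, the GC box GGGCGG, the TATA box TATAAA and the AP-1 site TGANTCA.
Cd34, chr13:109008536-109008785, plus strand: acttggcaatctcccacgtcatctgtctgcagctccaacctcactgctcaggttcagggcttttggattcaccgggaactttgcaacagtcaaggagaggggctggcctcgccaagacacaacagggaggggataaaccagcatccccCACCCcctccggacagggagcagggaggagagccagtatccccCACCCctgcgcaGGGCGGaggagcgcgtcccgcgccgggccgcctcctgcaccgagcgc
Emcn, chr2:228564289-228564538, plus strand: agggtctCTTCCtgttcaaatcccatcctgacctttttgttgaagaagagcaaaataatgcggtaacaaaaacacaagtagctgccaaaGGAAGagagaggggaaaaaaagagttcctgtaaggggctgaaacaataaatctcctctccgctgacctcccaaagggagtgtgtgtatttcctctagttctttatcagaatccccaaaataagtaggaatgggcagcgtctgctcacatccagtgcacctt
Aqp1, chr4:85812534-85812783, plus strand: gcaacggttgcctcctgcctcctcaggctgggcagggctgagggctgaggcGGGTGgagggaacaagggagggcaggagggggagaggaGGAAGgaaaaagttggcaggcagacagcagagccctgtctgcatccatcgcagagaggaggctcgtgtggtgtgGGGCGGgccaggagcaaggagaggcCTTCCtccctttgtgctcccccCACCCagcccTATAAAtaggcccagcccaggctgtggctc
The ETS core, read by the ETS family of transcription factors, matched in Emcn and Aqp1 and is held by 63.3% of 33469 promoters of this length. The KLF core matched in Cd34 and Aqp1 (49.2% of promoters), as did the GC box (30.5%). TATAAA matched in Aqp1, 30 bases before the start (12.9% of promoters), and the AP-1 site matched in none of the 3 (6.34%). No motif was shared by all 3 promoters. The promoter of Emcn had 44.4% G and C, against 64.8% in Cd34 and 65.2% in Aqp1 and a median of 51.2% over all promoters. These matches are of letters in these windows and were not tested as sites of binding.

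Levels are given in CPM, counts of a gene per 1000000 counts of its library, after scaling the libraries with TMM factors, separately over the 22 CCl4 libraries and over the 10 libraries of the TAA experiment, and they are not compared between the experiments or between genes. Totals per library ranged from 25646531 to 46464289 expected counts, and the smallest count behind a value was 19, for Cd34 in an acute library. Of the marker lists described below, the sinusoidal genes were present in each group, among them Stab2 and Lyve1, as was the endothelial cadherin Cdh5 (775 to 2154 CPM across the CCl4 libraries). In bulk samples, fewer cells of a type and less RNA per cell cannot be told apart.

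Emcn was lowest after acute injury and at fibrosis and highest in cirrhosis. Its level was between 59.2 and 201 CPM in the 6 healthy libraries, with a median of 112 CPM. The 5 acute libraries held 19.7, 25.4, 18.2, 15.6 and 33.7 CPM. The 5 fibrosis libraries held 22.6, 31.0, 30.9, 21.6 and 17.6 CPM, in the range of the acute ones and below each healthy library. In the 6 cirrhotic libraries Emcn was between 244 and 330 CPM, with a median of 288 CPM, and the lowest of them lay above the highest healthy library.

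Cd34 had the lowest counts of the 4 genes and followed the same course with more spread. The healthy libraries held 5.65 to 26.7 CPM, with a median of 12.8 CPM. After acute injury the libraries held 0.654, 1.72, 0.833, 1.96 and 0.600 CPM. At fibrosis they held 1.78, 2.93, 1.13, 2.61 and 3.70 CPM, so that the highest acute libraries overlapped with the lowest fibrosis libraries and all 10 lay below the healthy ones. Cirrhotic libraries held 20.7 to 42.9 CPM, with a median of 22.1 CPM. In cirrhosis 5 of the 6 libraries lay close together, between 20.7 and 22.8 CPM, replicate 2 stood apart at 42.9 CPM, and the highest healthy library, at 26.7 CPM, overlapped with this group.

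The water channel gene Aqp1 showed the widest range. Healthy libraries held 2855 to 15241 CPM, with a median of 6428 CPM. Acute libraries held 10.6, 22.04, 74.2, 84.1 and 31.5 CPM and fibrosis libraries 59.2, 131, 27.8, 156 and 141 CPM, so that the highest of these 10 was still far below the lowest healthy library. Cirrhotic libraries were between 2119 and 4242 CPM, with a median of 3422 CPM. They lay above every acute and fibrosis library and below 5 of the 6 healthy libraries, and the overlap came from healthy replicate 6 at 2855 CPM.

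Mcam fell to a narrow range and came back to the healthy one. It was between 107 and 202 CPM in healthy rats, with a median of 171 CPM. In the acute group the libraries held 19.2, 31.8, 27.2, 29.5 and 23.5 CPM, and in the fibrosis group 17.1, 19.4, 24.1, 18.1 and 15.4 CPM. In cirrhosis it was between 118 and 330 CPM, with a median of 176 CPM, and replicate 6 was the highest. Of the 6 cirrhotic libraries, 4 lay within the healthy range and 2 above it.

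**Figure D1:**
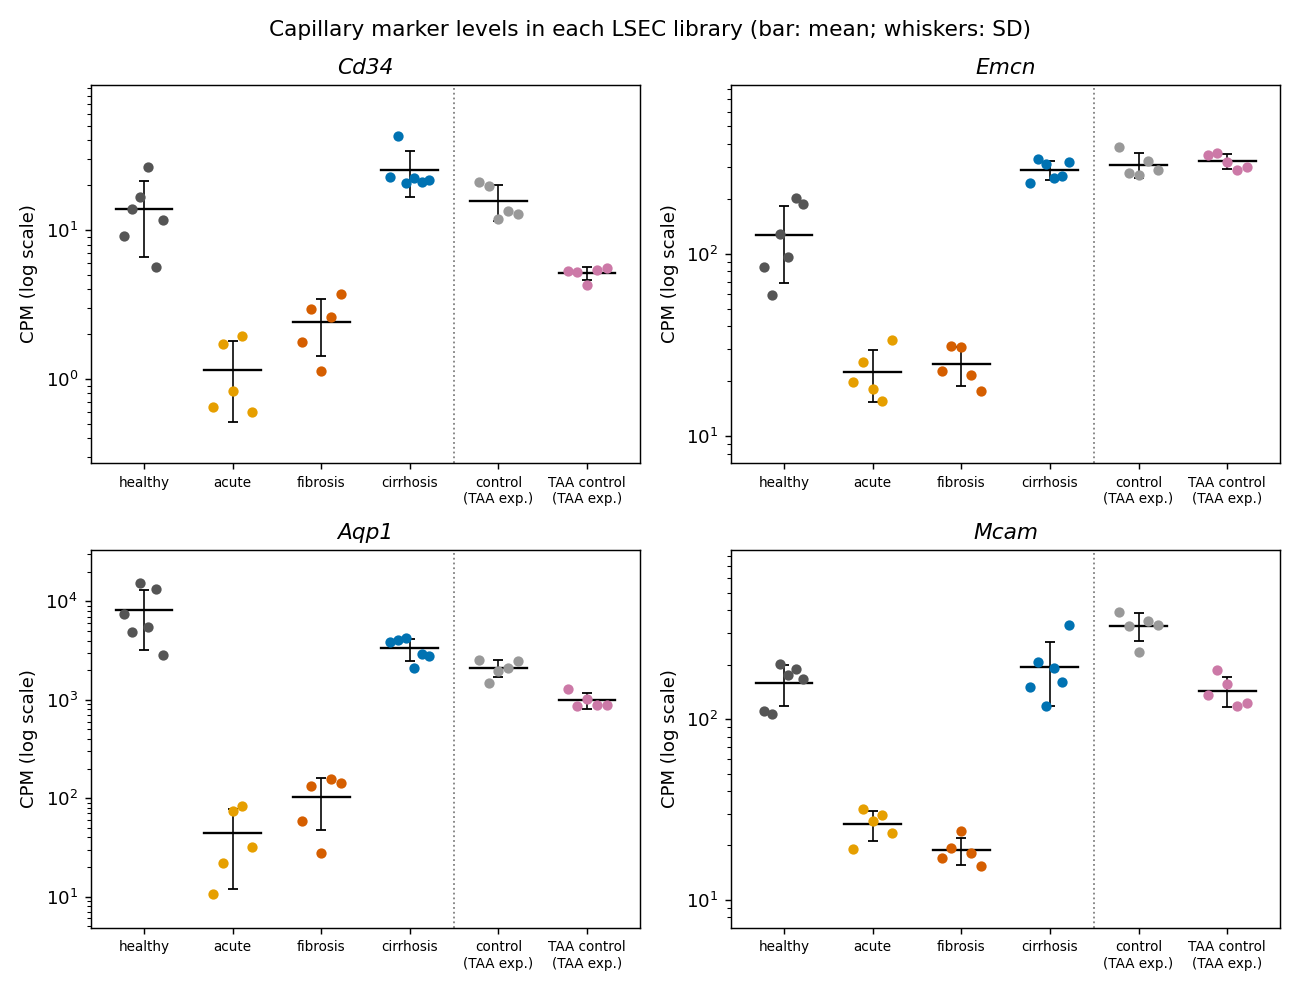
Level of each capillary marker in every library, in CPM on a log scale, with a panel for each gene and a column of points for each group. The bar is the mean and the whiskers are the SD (n = 5 or 6), and the dotted line separates the CCl4 libraries from the TAA experiment, which was scaled on its own. The acute and fibrosis libraries lie below all others of the CCl4 model in each panel, and the cirrhotic libraries of Emcn (244 to 330 CPM) lie above all healthy ones.

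After acute injury all 4 markers were lower than in healthy LSECs. Differences were tested with limma-voom on the libraries of the 2 groups compared, and a gene was called where the Benjamini-Hochberg adjusted p-value over all genes tested was under 0.05 and the fold change was above 1.5. Of 14317 genes tested between acute and healthy LSECs, 37.9% were called lower and 35.5% higher. Aqp1 had a log2 fold change of -7.64 (SE 0.560, adjusted p = 1.54e-07 from limma-voom), a 199-fold fall. Cd34 followed with -3.52 (SE 0.497, adjusted p = 3.84e-05), and Mcam and Emcn had -2.54 and -2.38 (SE 0.206 and 0.326). By size, the fall of Aqp1 was larger than the 5th percentile of all genes, -4.95, and those of the other markers lay inside it.

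At fibrosis the 4 markers were again lower than in healthy LSECs, where 34.9% of 14538 genes were called lower and 35.3% higher. Aqp1 was 77.2-fold lower, with a log2 fold change of -6.27 (SE 0.518, adjusted p = 5.44e-07 from limma-voom). Mcam, Cd34 and Emcn had log2 fold changes of -2.98 (SE 0.200), -2.38 (SE 0.446) and -2.19 (SE 0.314), with adjusted p-values of 9.96e-08, 4.21e-04 and 5.15e-05. Scaling by library size alone, without TMM, moved the median log2 fold change of all genes against healthy LSECs from -0.09 to 0.32 for acute injury, from -0.03 to 0.37 for fibrosis and from 0.07 to 0.42 for cirrhosis. It also moved the share of calls that were higher from 48.4% to 58.2%, from 50.3% to 60.9% and from 52.2% to 71.3%.

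Between fibrosis and acute injury none of the 4 markers was called by limma-voom, in a comparison in which 10.2% of 13931 genes were called higher in fibrosis and 0.732% lower. At an unadjusted p-value under 0.05 with the same fold, 2 of the 4 passed, Cd34 and Aqp1, and DESeq2 called 1, Cd34. Of all genes, 15.7% and 12.0% were called at these settings, 91.1% and 91.2% of them higher. The fitted differences, fibrosis minus acute, were 1.19 for Cd34 (95% interval 0.27 to 2.11, adjusted p = 0.0668), 1.41 for Aqp1 (0.00063 to 2.81, adjusted p = 0.140), 0.25 for Emcn (-0.24 to 0.73, adjusted p = 0.442) and -0.41 for Mcam (-0.76 to -0.05, adjusted p = 0.0943). Leaving out acute replicate 4 or fibrosis replicate 15 brought Cd34 past the threshold, with log2 fold changes of 1.44 and 1.42 and adjusted p-values of 0.0465 and 0.0371.

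Cirrhotic LSECs separated the markers. Emcn and Cd34 rose above the healthy level, Aqp1 stayed below it, and Mcam did not pass the test. Between cirrhotic and healthy LSECs, 27.1% of 14789 genes were called higher and 24.7% lower. Emcn was 2.50-fold higher, with a log2 fold change of 1.32 (SE 0.259, adjusted p = 0.00111 from limma-voom), and Cd34 was 1.99-fold higher, with 0.99 (SE 0.322, adjusted p = 0.0181). Aqp1 was 2.14-fold lower, with -1.10 (SE 0.369, adjusted p = 0.0212). Mcam had 0.26, with a 95% interval of -0.26 to 0.77 (adjusted p = 0.377).

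The call of Aqp1 did not hold with library size without TMM (-0.75, adjusted p = 0.0636) or with a single fit over the 4 CCl4 groups (-1.11, adjusted p = 0.0738), and without TMM Mcam was called (0.60, adjusted p = 0.0446). Relative to the median of all genes, the differences without TMM were 1.25 for Emcn, 0.91 for Cd34, -1.17 for Aqp1 and 0.19 for Mcam, against 1.25, 0.92, -1.17 and 0.18 with TMM. Another scaling shifts all genes by nearly the same amount, so this match follows from the subtraction. It cannot show which scaling is right or whether the calls hold.

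From fibrosis to cirrhosis all 4 markers rose, beside 34.3% of 15186 genes called higher and 29.5% lower. The log2 fold changes were 5.24 for Aqp1 (SE 0.455), 3.57 for Emcn (SE 0.151), 3.42 for Cd34 (SE 0.358) and 3.30 for Mcam (SE 0.234), with adjusted p-values between 1.20e-09 and 2.73e-06 from limma-voom. Against acute injury, where 37.5% of 15005 genes were called higher in cirrhosis and 31.8% lower, they were 6.57, 3.74, 4.54 and 2.82 in the same order of genes. In the order of their levels, acute injury and fibrosis were thus neighbours for which no marker passed the test, and for Mcam this also held for healthy and cirrhotic LSECs. These comparisons share groups of libraries and are not independent of each other.

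**Figure D2:**
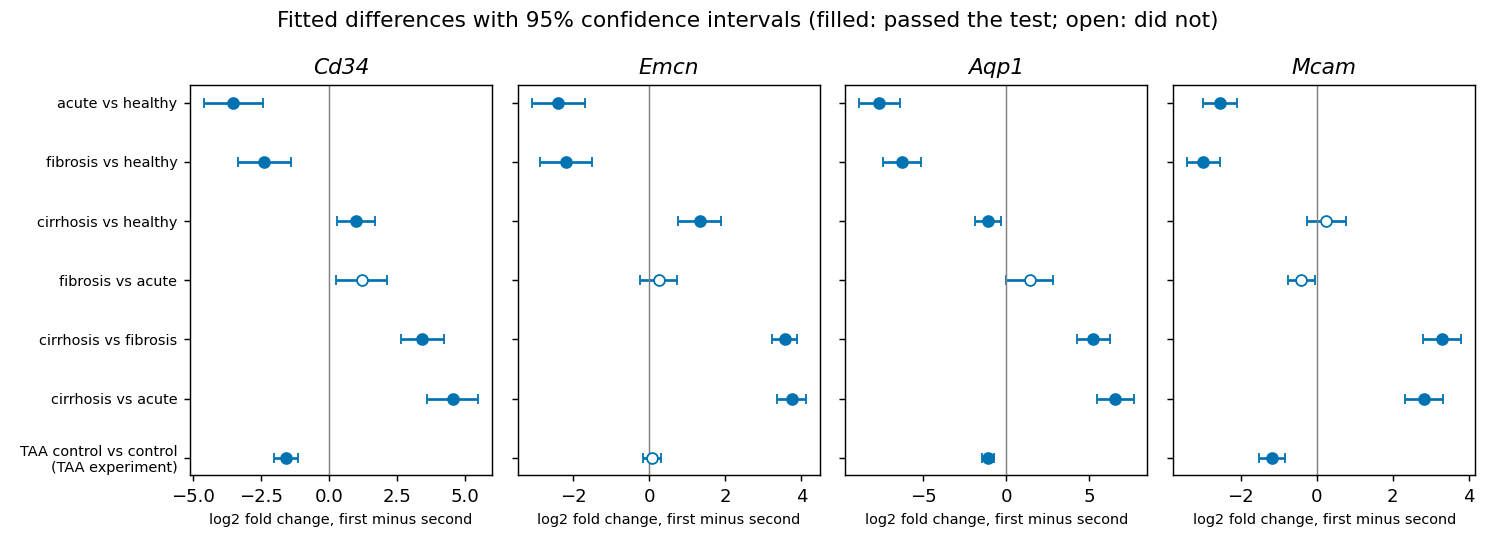
Fitted log2 fold change of each marker in the 7 comparisons, with its 95% confidence interval, the group named first minus the group named second. Filled points passed the test (adjusted p under 0.05 and fold above 1.5) and open points did not. Against healthy LSECs the points of all 4 genes lie left of 0 for acute injury and fibrosis, and for cirrhosis Emcn (1.32) and Cd34 (0.99) lie right of it and Aqp1 (-1.10) left.

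To set the markers against endothelial RNA as a whole, the mean log2 CPM of 7 pan-endothelial genes (Cdh5, Tie1, Tek, Kdr, Egfl7, Erg and Esam) was subtracted in each library. This mean was itself lower than in healthy LSECs by 1.69 after acute injury and by 1.95 at fibrosis, on the log2 scale, with no overlap of libraries, and in cirrhosis it differed from the healthy mean by -0.11 (SE 0.156). The list did not move as a whole. After acute injury 5 of its 7 genes were called lower and 1 higher, beside 37.9% and 35.5% of all genes. Among the 7, the receptor gene Kdr had -3.96, the junction gene Esam -3.67 and the receptor gene Tie1 -3.00 (adjusted p between 1.97e-08 and 6.63e-07 from limma-voom). The transcription factor Erg had 1.14 and was called higher, and the cadherin Cdh5 had 0.39 and was not called (adjusted p = 0.156 from limma-voom). At fibrosis 5 of the 7 were lower and none higher, beside 34.9% and 35.3% of all genes. In cirrhosis 3 of the 7 were lower and 1 higher, beside 24.7% and 27.1%, so a mean near the healthy one does not mean that its genes were unchanged.

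Relative to this mean, the fall of Emcn after acute injury was -0.72 (SE 0.262) and that of Cd34 was -1.90 (SE 0.486), and in both the acute libraries overlapped with healthy ones. At fibrosis these differences were -0.30 (SE 0.207) for Emcn and -0.51 (SE 0.484) for Cd34, also with overlap. Aqp1 and Mcam stayed apart from the healthy libraries on this scale, at -5.99 (SE 0.674) and -0.88 (SE 0.135) after acute injury and at -4.38 (SE 0.594) and -1.09 (SE 0.0986) at fibrosis. In cirrhosis the relative level of Emcn was 1.42 above the healthy one (SE 0.186) with no overlap. Those of Cd34, Mcam and Aqp1 differed from it by 1.07 (SE 0.403), 0.35 (SE 0.206) and -0.996 (SE 0.356), with overlap. These relative values are a description, and no test was made of them.

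**Figure D3:**
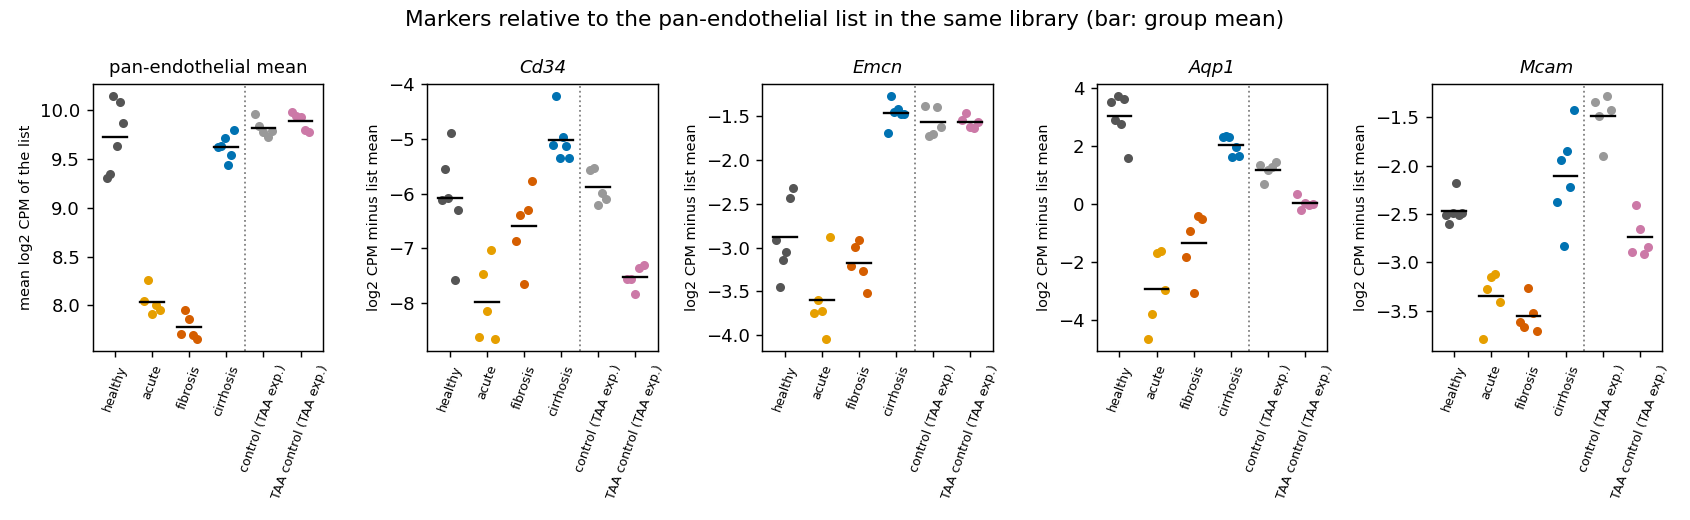
Mean log2 CPM of 7 pan-endothelial genes in each library (left panel) and log2 CPM of each marker minus that mean in the same library (other panels), by group. Points are libraries, bars are group means, and the dotted line separates the TAA experiment, scaled on its own. The cirrhotic libraries of Emcn lie above all healthy ones, with group means of -1.46 and -2.88, and the cirrhotic mean of Aqp1, 2.04, lies between the healthy mean of 3.04 and the fibrosis mean of -1.35.

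Other genes of continuous and capillary endothelium were read in the same fits, from a list of 18 of which 16 had a row in the files. After acute injury 12 of the 16 were called lower and 3 higher, with a median log2 fold change of -3.59 beside -0.09 over all genes, and at fibrosis 13 were lower and 3 higher, with a median of -3.31 beside -0.03. Of all genes, 37.9% and 34.9% were called lower at these stages and 35.5% and 35.3% higher. Vwf, the gene of von Willebrand factor, had -7.74 and -6.43, and Plvap, whose product forms the diaphragms of fenestrae and caveolae, had -6.31 and -5.60. The 3 genes called higher at both stages were Cav1, the coat protein of caveolae (1.75 and 1.44), the carbonic anhydrase Car4 (4.94 and 4.31) and the peptide hormone gene Apln (3.24 and 0.88). The tight junction gene Cldn5 had no count in any acute library, and 0 to 3 counts in fibrosis libraries, against 19 to 114 in healthy libraries.

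In cirrhosis this list did not rise as a whole. Of its 16 genes, 2 were called higher and 6 lower, with a median of -0.18 beside 0.07 over all genes, of which 27.1% were called higher and 24.7% lower. Cldn5 was higher, with a log2 fold change of 2.65 (adjusted p = 7.26e-04 from limma-voom), as was Cav1, with 1.12 (adjusted p = 7.47e-04). Called lower were Eng (-1.55), a co-receptor of TGF-beta family ligands, Apln (-1.47), Icam2 (-1.43), the transcription factor Sox18 (-1.18), Ramp2 (-1.15) and Plvap (-0.95). Vwf had 0.09 (adjusted p = 0.837). Without TMM, where the median of all genes was 0.42, the median of the list was 0.17, and 3 genes were called higher and 5 lower. At that setting 54.3% of all genes were called, 71.3% of them higher.

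Genes of sinusoidal identity fell at the stages at which the capillary markers fell. After acute injury 14 of 16 were called lower and none higher, with a median of -3.01, and at fibrosis all 16 were lower, with a median of -3.20. Of all genes, 37.9% and 34.9% were called lower at these stages, with medians of -0.09 and -0.03. The scavenger receptor genes Stab1 and Stab2 had -5.04 and -4.52 after acute injury. In cirrhosis 5 of the 16 were called lower and 1 higher, with a median of -0.06, beside 24.7% of all genes called lower, 27.1% higher and a median of 0.07. The 5 were Stab1 (-2.04, adjusted p = 6.72e-05 from limma-voom), the transcription factor Gata4 (-1.16), Oit3 (-0.99), the nuclease Dnase1l3 (-0.86) and the receptor gene Flt4 (-0.79), and the gene called higher was the hyaluronan receptor Lyve1 (0.75, adjusted p = 0.0400). Stab2 had 0.02 (adjusted p = 0.953). Without TMM 3 genes of this list were higher and 3 lower, with a median of 0.29. At that setting 54.3% of all genes were called, 71.3% of them higher, and their median was 0.42.

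Basement membrane genes were called in both directions at each stage of the CCl4 model. After acute injury 3 of 13 tested were called higher and 7 lower, beside 35.5% and 37.9% of all genes. At fibrosis 5 of 13 were higher and 6 lower, beside 35.3% and 34.9%. In cirrhosis 4 of 14 were higher and 3 lower. The medians were -0.67, -0.51 and 0.13 beside -0.09, -0.03 and 0.07 over all genes. In cirrhosis these shares lie near those of all genes, 27.1% called higher and 24.7% lower, as does the share called higher at fibrosis (35.3% of all genes). Those higher in cirrhosis were the collagen gene Col15a1 (3.72), the laminin subunit Lamb1 (3.14), the linker Nid1 (1.06) and the collagen chain Col4a5 (0.67), with adjusted p-values between 9.62e-05 and 0.0347 from limma-voom. Lower were Hspg2, the gene of perlecan (-1.71), Lamb2 (-1.16) and Col4a2 (-0.83). Lamb1 rose already at fibrosis (2.63), and Nid1 and Nid2 were higher at both earlier stages (2.13 and 2.76 after acute injury, and 1.47 for Nid1 at fibrosis). Without TMM 6 were higher and 2 lower in cirrhosis. At that setting 54.3% of all genes were called, 71.3% of them higher.

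**Figure D4:**
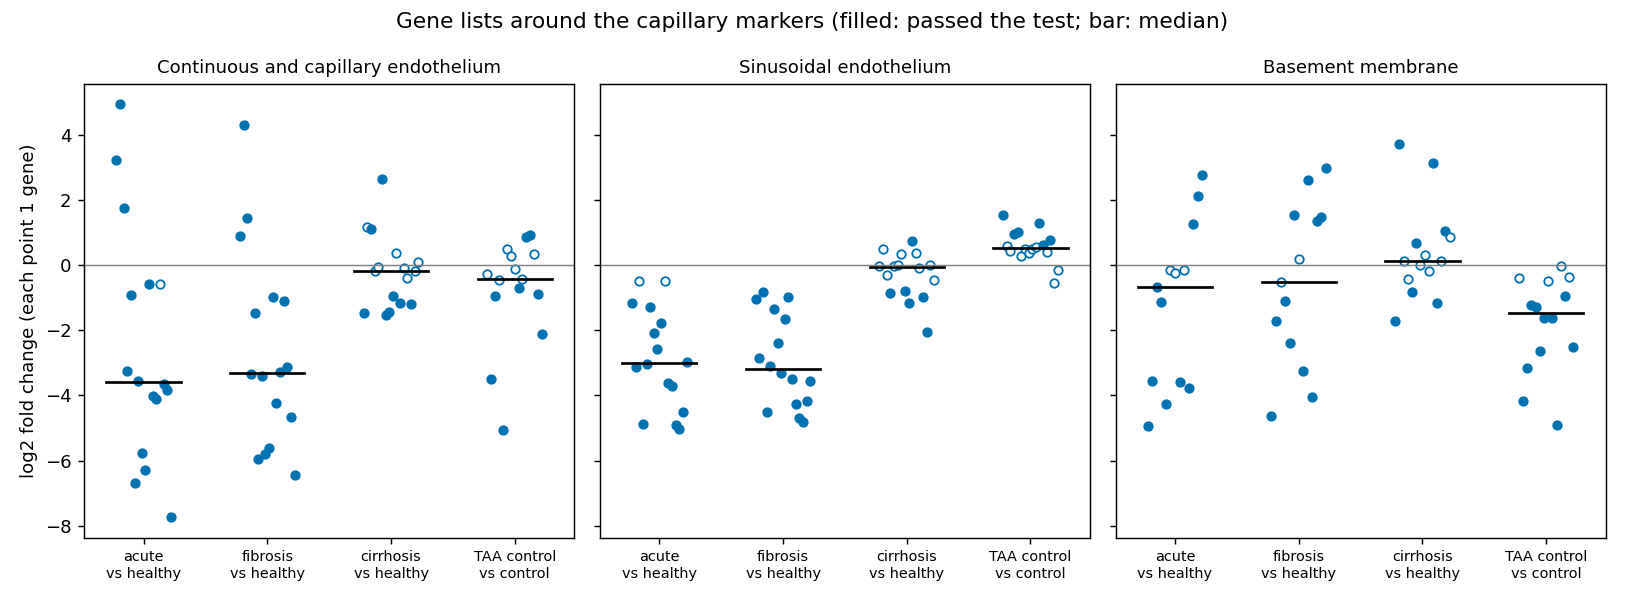
Log2 fold changes of single genes of 3 lists in 4 comparisons, with filled points for genes that passed the test, open points for those that did not and a bar at the median of the list. The first 2 lists lie mostly below 0 after acute injury and at fibrosis (medians between -3.59 and -3.01) and near 0 in cirrhosis (-0.18 and -0.06), whereas basement membrane genes lie on both sides of 0 in the CCl4 model.

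Genes whose products bind or signal from the 5 markers were read from a list of 13. After acute injury 2 of the 12 tested were called higher and 6 lower, beside 35.5% of all genes called higher and 37.9% lower. Among them were the phosphatase gene Ptpn11 (1.51), which acts downstream of PECAM-1, and the podocalyxin gene Podxl (-0.59), a sialomucin of the family of CD34. At fibrosis 2 of 13 were higher and 6 lower, beside 35.3% and 34.9% of all genes. Wnt5a, named as a ligand of CD146, was higher at fibrosis (4.14), at 27 to 198 counts a library against 0 to 10 in healthy libraries.

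Aquaporin genes other than Aqp1 had few counts in most libraries. Of the 10, Aqp2 and Aqp6 had at most 1 count in any library, and 4 to 6 passed the filter on low counts in the comparisons with healthy LSECs. Beside 37.9% and 34.9% of all genes, all 4 tested after acute injury and all 5 tested at fibrosis were called lower. Aqp8 and Aqp9, water channels of hepatocytes, were among them, with medians of 25.0 and 11.7 CPM in healthy libraries and 0.136 and 0.139 CPM in acute libraries. In cirrhosis 1 of 6, Aqp11, was lower (-1.41, adjusted p = 0.0181 from limma-voom), beside 24.7% of all genes. That call was lost without TMM.

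Markers of other cells moved with the stages too. The summed level of 7 hepatocyte genes was 716 to 17347 CPM in healthy libraries, 87.2 to 778 CPM after acute injury, 1027 to 4273 CPM at fibrosis and 1655 to 11040 CPM in cirrhosis. Within the healthy group Aqp1 was highest in replicates 3 and 5 (15241 and 13396 CPM), which had the lowest hepatocyte sums (1986 and 716 CPM), and it was lowest in replicate 6 (2855 CPM), with a sum of 16975 CPM. Cholangiocyte genes, which mark other cells that make Aqp1, summed to at most 34.0 CPM in a healthy library and 12.3 CPM in a cirrhotic library. Erythroid genes, which mark red blood cells, another source of Aqp1, summed to 1.68 to 579 CPM in healthy libraries, 0.379 to 1.85 CPM after acute injury, 2.89 to 7.78 CPM at fibrosis and 1.39 to 22.4 CPM in cirrhosis, and both genes tested were called lower after acute injury. Healthy replicates 5 and 3, the highest in Aqp1, had the lowest erythroid sums of their group (1.68 and 12.9 CPM). Macrophage genes fell from 366 to 3813 CPM in healthy libraries to 81.5 to 238 CPM and 35.5 to 225 CPM after acute injury and at fibrosis, and held 871 to 3132 CPM in cirrhosis. The part of these cells in the results for the markers was not tested.

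Stellate cells and pericytes share Mcam with endothelium. In cirrhosis 7 of 10 of their genes were called higher and 1 lower, with a median log2 fold change of 2.26, beside 27.1% and 24.7% of all genes and a median of 0.07. Rgs5, a pericyte gene singled out after its values were seen, rose from at most 1.11 CPM in healthy libraries to between 11.3 and 22.3 CPM (log2 fold change 4.59). The summed level of the list was 187 to 308 CPM in healthy and 252 to 630 CPM in cirrhotic libraries, and its highest value, in replicate 6, was in the library with the highest Mcam. The lowest sum, in replicate 5, went with 159 CPM of Mcam, near the median. After acute injury and at fibrosis the sum was 1318 to 2132 CPM and 1270 to 1722 CPM, of which Reln alone made up 1306 to 2124 CPM and 1174 to 1570 CPM, and of the 10 genes 7 were called lower and 1 higher after acute injury and 4 lower and 3 higher at fibrosis. Of all genes, 37.9% and 34.9% were called lower at these stages and 35.5% and 35.3% higher. Lymphatic endothelial genes were higher in cirrhosis in 4 of 6 and lower in 1, beside 27.1% and 24.7% of all genes. Of the 6, Lyve1 (higher) and Flt4 (lower) were also counted in the sinusoidal list, and Reln in the stellate cell and pericyte list. Those higher included Mmrn1 (65.6 to 307 CPM, against 0.143 to 0.787 CPM in healthy libraries), also named after its values were seen. All 8 immediate-early genes, which respond within minutes to stimuli and to handling of tissue, were lower after acute injury and at fibrosis, and their sum was 795 to 2060 CPM and 1693 to 2644 CPM against 25086 to 50608 CPM in healthy and 15042 to 32300 CPM in cirrhotic libraries. The part of these genes' sources in the results for the markers was not tested.

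Genes most like each marker were found by the root mean square difference of their log2 CPM profiles over the 22 CCl4 libraries, each centred on its mean, among 8340 genes with a mean log2 CPM of at least 3. The profiles share the same libraries, and a small difference is a description only. They include the healthy and cirrhotic libraries, so that sharing the call of a marker in cirrhosis follows in part from the choice. For Emcn the nearest were the junction gene Jam2 (0.26), the selenium carrier Selenop (0.32) and the peptidase Enpep (0.33), against a median of 1.78 over all candidates. All 3 were called higher in cirrhosis than in healthy LSECs (log2 fold changes 1.10, 0.85 and 0.92). For Mcam they were Nhsl2 (0.32), the retinoic acid receptor Rarb (0.37) and Gngt2 (0.39), with a median of 1.66, and none of these was called in cirrhosis.

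For Cd34 the nearest profiles were those of the integrin Itgb4 (0.58), the P-selectin gene Selp (0.61) and the metalloproteinase inhibitor Timp2 (0.62), with a median of 2.05, and Selp and Timp2 were called higher in cirrhosis (1.46 and 0.78). For Aqp1 they were Fam110d (0.84), Plvap (0.91) and the matrix gene Emilin1 (0.96), with a median of 3.47. Plvap and Emilin1 were called lower in cirrhosis (-0.95 and -1.47), as Aqp1 was, and these calls too follow in part from the choice. Over the 10 libraries of the TAA experiment, Itgb4 was also close to Cd34, at 0.28 against a median of 0.86 over candidates, whereas Jam2 and Emcn differed by 0.40, above the median of 0.26. Selp and Timp2 were at 0.59 and 0.42 from Cd34, below its median. Selenop and Enpep (0.32 and 0.40) were above the median for Emcn. Plvap and Emilin1 (0.73 and 0.75) were above the median of 0.64 for Aqp1, and Fam110d (0.35) was below it. Rarb and Gngt2 (0.77 and 0.76) were above the median of 0.68 for Mcam, and Nhsl2 (0.48) was below it. Among the markers themselves, Emcn and Mcam had the smallest difference over the CCl4 libraries (0.60) and Emcn and Aqp1 the largest (2.22).

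In the TAA experiment 3 of the 4 markers differed between the groups. Cd34 held 21.0, 19.8, 11.8, 13.3 and 12.9 CPM in the group labelled control and 5.33, 5.21, 4.28, 5.37 and 5.54 CPM in the group labelled TAA control. Aqp1 held 2547, 1484, 1977, 2091 and 2458 CPM in the control group and 1281, 859, 1018, 878 and 888 CPM in the TAA control group. Neither gene overlapped between the groups.

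Mcam held 393, 327, 235, 350 and 329 CPM in libraries labelled control and 136, 186, 155, 118 and 123 CPM in those labelled TAA control, again with no overlap. Emcn held 382, 277, 269, 322 and 288 CPM in the former and 345, 358, 318, 286 and 299 CPM in the latter, with the ranges overlapping nearly in full. Of 14376 genes tested, 12.7% were called higher in the group labelled TAA control and 14.9% lower. The log2 fold changes, TAA control minus control, were -1.58 for Cd34 (SE 0.206, adjusted p = 1.80e-04 from limma-voom), -1.19 for Mcam (SE 0.155, adjusted p = 1.81e-04) and -1.09 for Aqp1 (SE 0.159, adjusted p = 3.35e-04). For Emcn the difference was 0.07, with a 95% interval of -0.17 to 0.30 (adjusted p = 0.622).

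Relative to the pan-endothelial mean, which differed by 0.07 (SE 0.0575) between these groups, the differences were -1.64 for Cd34, -1.25 for Mcam, -1.16 for Aqp1 and 0.002 for Emcn. The lists below stand beside 12.7% of all genes called higher in the group labelled TAA control and 14.9% lower. This group was lower in 10 of 14 basement membrane genes and higher in none, with a median of -1.46, and Lamb1 and Col15a1 had -4.92 and -4.17. Sinusoidal genes were higher there in 6 of 16 and lower in none, with Stab1 at 0.77, and continuous and capillary genes were higher in 2 of 15 and lower in 6, with Cldn5 at -5.06 and Vwf at -2.12. Stellate cell and pericyte genes were lower in 8 of 10, Rgs5 and Mmrn1 had -4.33 and -7.78, and all 8 immediate-early genes were higher. In the CCl4 model, cirrhosis minus healthy, the same genes had 3.14 (Lamb1), 3.72 (Col15a1), -2.04 (Stab1), 2.65 (Cldn5), 0.09 (Vwf), 4.59 (Rgs5) and 8.70 (Mmrn1), with Vwf not called. The markers had 0.99 (Cd34), -1.10 (Aqp1), 1.32 (Emcn) and 0.26 (Mcam) there, so that Aqp1 was called lower in both comparisons as labelled and Cd34 was called in opposite directions. The genes other than the markers were picked from longer lists, and how many genes changed sign between the comparisons was not counted. Plvap, of the capillary list, had -0.95 in cirrhosis and -0.11 in the TAA experiment, where it was not called. No direction of disease is read from these values. Within groups, the most alike pair of libraries was replicates 14 and 15 labelled TAA control, with a chi-square of 2.96 per degree of freedom over genes against at least 23.6 for other pairs, which is above sampling noise, and both were kept. The labels do not say whether they come from separate rats, and if they do not, this group has 4 rats and the printed SEs and p-values rest on 1 library too many. Without replicate 15, the log2 fold changes were -1.60 for Cd34, -1.13 for Mcam and -1.05 for Aqp1 (adjusted p = 6.57e-04, 6.67e-04 and 0.00119 from limma-voom), and all 3 calls were also made without replicate 14.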

How the data were processed

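Poly(A) RNA of LSECs was sequenced from strand-specific libraries. Per the labels and the paper's methods, reads were trimmed with Trim Galore, mapped to Rnor_6.0 with STAR and quantified with RSEM, with versions not given in the sources used here. The values deposited by the authors are RSEM expected counts (estimated counts), not normalized and not pooled, and reads that fit several genes are divided among them by estimate. Rounding to whole numbers came before any fit. The software was limma 3.58.1, DESeq2 1.42.0 and edgeR 4.0.16 under R 4.3.3, with matplotlib 3.10.9 under Python 3.11 for figures.

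The test was limma-voom with TMM factors and filterByExpr, as the study names limma-voom and TMM, on the libraries of the 2 groups compared, with no covariate, in 7 comparisons. Calls needed a Benjamini-Hochberg adjusted p-value under 0.05 over all genes tested and a fold change above 1.5. CPM used TMM factors, and log2 CPM a pseudocount of 0.5. Libraries of a group are taken as separate rats, which is in doubt for replicates 14 and 15 labelled TAA control, and p-values measure the spread between them. Healthy, acute and cirrhotic libraries carry some of the same replicate numbers but come from different rats.

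Named genes were the markers, the 3 nearest profiles of each and genes of the endothelial, basement membrane, partner and aquaporin lists, with exceptions said in the text. The markers and lists were chosen with earlier results of these data known, and lists are described by counts and medians, with no test of their own. Older symbols were matched through RefSeq, by which Hspg2 is listed under a clone name. Genes not matched included Robo4, Cavin1, Ly6c1 and Ackr1. The partner genes in cirrhosis are not reported here. Lists of arterial and venous endothelium, platelets, lymphocytes, mesothelium, erythroid cells and proliferation were also read and are given in the closing section. Gene positions on Rnor_6.0 were not used here. The fits were also run on simulated data with few changed genes, as many raised as lowered. Those data cannot show how the fits handle the wide shifts between these groups. Alternatives tried were edgeR, DESeq2, other thresholds, scalings and filters, a single fit, a replicate block and leaving out each library.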

Additional observations from a re-analysis of the deposited data

Results flagged for a closer look

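Over the 4 markers and 6 groups, 24 sets of libraries were searched for a library far from the others, and 2 were found, where chance gives about 1.2. Cd34 in cirrhosis had a high library, replicate 2, at a log2 CPM of 5.42. Cd34 in the group labelled TAA control had a low library, replicate 13, at a log2 CPM of 2.10.

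The differences from healthy LSECs were not the same at each stage, by the limma-voom test between the stages themselves. These are the direct fits between stages already given above. Cirrhosis minus fibrosis was 3.42 for Cd34, 3.57 for Emcn, 5.24 for Aqp1 and 3.30 for Mcam on the log2 scale. Cirrhosis minus acute injury was 4.54 for Cd34, 3.74 for Emcn, 6.57 for Aqp1 and 2.82 for Mcam.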

How the results depend on the processing

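Of 564 alternative log2 fold changes of the markers, 556 kept their direction and their side of the threshold, 2 lost the call, 6 gained it and none changed sign. Both losses were of Aqp1 in cirrhosis against healthy LSECs, and the gains were of Mcam there without TMM and of Cd34 and Aqp1 between fibrosis and acute injury. Of 141 alternative counts of markers called, 137 were within 1.5 times the main count. Between fibrosis and acute injury the count of 0 became 1 with DESeq2 and 2 with unadjusted p-values, and 0 to 1 with single libraries left out. The cause of these changes was not tested. The replicate numbers were not used as pairs. Correlations of same-numbered deviations ran from 0.0443 to 0.147 for acute injury against healthy LSECs and from -0.0750 to 0.0613 for cirrhosis against acute injury. They ran from -0.211 to 0.230 for cirrhosis against healthy LSECs. In none of these comparisons was every pair above 0.1. The stages come from different rats, but so few pairs cannot decide whether libraries with the same number share a batch. With the replicate number as a block, 4 markers were called for acute injury, 3 for cirrhosis against healthy LSECs and 4 for cirrhosis against acute injury, as without it, and the genes called overall went from 10502 to 10896, from 7660 to 7275 and from 10399 to 9979. A library correlated best with its own number in 1 of 4, 0 of 6 and 0 of 4 pairs. Cd34 in the acute libraries rests on as few as 19 counts, which limits the precision of its folds.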

Other observations

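Arterial and venous endothelial genes fell with the capillary markers after acute injury and at fibrosis. Their lists overlap with that of continuous and capillary endothelium, by Sox17 in the arterial list and Vwf in the venous list. Of 6 arterial genes, 5 were called lower by limma-voom after acute injury, 6 at fibrosis and 1 in cirrhosis, the Notch ligand Dll4 (log2 fold change -1.65, adjusted p = 5.79e-05). Of all genes, 37.9%, 34.9% and 24.7% were called lower at these stages. Gja5, a gap junction gene of arteries, had -8.24 after acute injury. Of 4 venous genes, 3 and 4 were lower at the earlier stages. In cirrhosis P-selectin was higher (1.46) and the receptor gene Ephb4 lower (-1.52). These genes were named after their values were seen.

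Other lists were read in cirrhosis against healthy LSECs. Of the genes tested, 3 of 6 proliferation genes, 2 of 6 cholangiocyte genes and 1 of 6 genes of mesothelium and portal fibroblasts were called higher, beside 27.1% of all genes called higher and 24.7% lower. None of 4 platelet genes and none of 2 erythroid genes was called by limma-voom, and 1 of 7 lymphocyte genes and 1 of 7 hepatocyte genes was lower. After acute injury, where 37.9% of all genes were called lower, both erythroid genes tested were lower, as were 4 of 5 lymphocyte genes, 5 of 6 genes of mesothelium and portal fibroblasts, 7 of 7 hepatocyte genes, 3 of 4 cholangiocyte genes and 2 of 4 platelet genes. In the group labelled TAA control against control, proliferation genes were lower in 5 of 6, cholangiocyte genes in 5 of 5 and genes of mesothelium and portal fibroblasts in 5 of 5, beside 14.9% of all genes called lower.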
